A study of Mus musculus with 4 samples.

Results

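Transcripts of 10 genes of the T cell receptor complex, its coreceptors and closely linked surface receptors (Cd3d, Cd3e, Cd3g, Lck, Cd4, Cd8a, Cd8b1, Cd28, Cd5 and Il7r) were read in mouse salivary glands with and without MyD88, the adaptor protein that carries signals from Toll-like receptors and receptors of the IL-1 family. The genes are 10 of 34844 gene names on the array, represented by 12 probes that bear their names. They were chosen by what these 4 arrays had already shown for T cell genes, so the differences of the 10 genes between the labels are given as a description, with no test. The glands, submandibular (SMG) together with sublingual (SLG), came from female mice of the strain given as C57/BL6 at 10 weeks of age, and were freed of lymph nodes, connective tissue and fat under a stereoscope. The Myd88-KO group was Myd88-null, the Wildtype group was wild type, and the study bred both from heterozygous parents. The labels give 2 arrays for each group, whereas the legends of the study count 3 mice for each genotype, and no source used here says whether mice were pooled. The labels name both glands as the source, whereas the study's text names SMGs alone for its arrays. Nothing says that the 2 arrays of a group came from separate mice, so that the p-values given for other genes below measure only the spread between these samples, which may be technical.

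T cells recognise peptides on MHC molecules with a clonal receptor of paired α and β (or γ and δ) chains, which cannot signal by themselves. The signal is carried by the CD3 γ, δ and ε chains and the ζ chain, whose tails hold immunoreceptor tyrosine-based activation motifs (ITAMs). The kinase Lck, held by the coreceptors CD4 and CD8, phosphorylates these motifs, and Zap70 then docks on them. CD28 adds the costimulatory signal, CD5 dampens signalling through the receptor, and the IL-7 receptor keeps resting T cells alive. Lymphocytes are known to lie among the acini and ducts of salivary glands. In whole tissue, fewer cells of a type and less RNA per cell cannot be told apart.

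Each value is the log2 background-corrected signal of a probe over the 75th percentile on the same array, so that 0 stands for that percentile. A spot is called well above background by the scanner software. The share of spots that were so called was 53.3% and 68.9% on Myd88-KO arrays 1 and 2 and 74.6% and 56.2% on Wildtype arrays 1 and 2, so it differed more within the labels than between them, and dim probes were read with less certainty on Myd88-KO array 1 and Wildtype array 2. All 4 arrays were on 1 slide and in 1 scan. The probe of Myd88 itself, on the same chromosome as the Cd3 genes and 74438435 bases from the Cd3e probe, read 1.51 and 1.41 on the Myd88-KO arrays and 1.15 and 1.07 on the Wildtype arrays. It was thus not lower under the Myd88-KO label (0.35 on the log2 scale; limma, adjusted p = 0.264). The deleted exons are not stated in the sources used here, so the labels are not checked by it, and each group is called by its label throughout.

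The probe of Cd3d is shown because it reads the very stretch that codes for the signalling motif of this chain, and that of Cd247, the ζ chain, because it reads the first such stretch of the partner chain. Each is given 5′ to 3′ as deposited, with the bases that code for the ITAM (15 codons from tyrosine to leucine) in capitals.
Cd3d: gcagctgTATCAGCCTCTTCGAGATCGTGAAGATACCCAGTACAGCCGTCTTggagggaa
Cd247: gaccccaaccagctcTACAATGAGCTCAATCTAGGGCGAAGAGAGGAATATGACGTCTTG
The Cd3d probe lies on the plus strand at chr9:44794171-44794402 and the Cd247 probe at chr1:167786567-167787585 (NCBI37/mm9, as in the scanner files). Their 60 bases span 232 and 1019 bases of the genome, so both cross an intron and read the spliced transcript.

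The genes of the 3 CD3 chains are neighbours on chromosome 9. Their probes lie at chr9:44777868-44777927 (Cd3g, minus strand), chr9:44794171-44794402 (Cd3d) and chr9:44806828-44806887 (Cd3e, minus strand). Cd3g and Cd3d are transcribed away from each other from starts 1355 bases apart in the RefSeq table (GRCm38.p6), and the start of Cd3e is 27825 bases from that of Cd3d. The promoters of the 3 genes are shown because the probes of these neighbours behaved differently on the arrays. Each runs from 250 bases before to 30 bases after the start, in the direction of the gene, with every match to the E-box CAGGTG, on either strand, in capitals.
Cd3g: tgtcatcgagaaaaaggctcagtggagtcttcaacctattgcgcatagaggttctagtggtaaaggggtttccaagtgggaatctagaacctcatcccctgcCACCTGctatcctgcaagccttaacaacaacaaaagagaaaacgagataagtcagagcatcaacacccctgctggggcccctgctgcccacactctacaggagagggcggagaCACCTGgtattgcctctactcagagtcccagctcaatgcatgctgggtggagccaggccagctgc
Cd3d: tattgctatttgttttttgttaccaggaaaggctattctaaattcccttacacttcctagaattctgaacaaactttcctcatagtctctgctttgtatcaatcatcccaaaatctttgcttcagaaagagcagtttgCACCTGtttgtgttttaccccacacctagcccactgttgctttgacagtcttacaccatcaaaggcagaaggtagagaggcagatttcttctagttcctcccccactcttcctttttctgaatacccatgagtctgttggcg
Cd3e: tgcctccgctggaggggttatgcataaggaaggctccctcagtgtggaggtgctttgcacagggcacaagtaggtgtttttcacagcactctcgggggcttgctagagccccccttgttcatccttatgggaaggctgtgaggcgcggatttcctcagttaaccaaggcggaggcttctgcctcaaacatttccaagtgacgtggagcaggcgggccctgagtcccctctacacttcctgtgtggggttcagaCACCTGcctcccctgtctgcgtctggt
In GRCm38.p6 the windows are chr9:44980402-44980681 (Cd3g, minus strand), chr9:44981536-44981815 (Cd3d, plus strand) and chr9:45009582-45009861 (Cd3e, minus strand). The E-box was found in the windows of Cd3d, Cd3e, Cd3g, Cd5 and Lck, that is 5 of the 7 member genes with an entry in the table, and in 19.1% of all 32851 windows of the same length. The ETS core GGAAGT was found in 5 of the 7 (Cd3d, Cd3e, Cd5, Il7r and Lck) and in 22.3% of all windows. TGTGGT, a core of RUNX sites, was found in Il7r and Lck (15.6% of all windows), CTTTGA, a core of TCF sites, in Cd3d alone (15.2%), AGATAA, a core of GATA sites, in Cd3g alone (10.7%), and TATAAA in 0 of the 7 (13.1%). All 6 motifs were searched on both strands, and none of them contains another. The members are counted by gene, with 8 windows for the 7 genes, whereas the percentages count windows, so the shares are not in like units. A match is a description of the sequence only. Cd4, Cd8b1 and Cd28 have no entry.

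Among the CD3 chains, Cd3d and Cd3g were lower under the Myd88-KO label and Cd3e was level. Cd3d, the δ chain, read -4.78 and -3.41 on Myd88-KO arrays 1 and 2 and 0.91 and -0.21 on Wildtype arrays 1 and 2. Both Myd88-KO arrays lay far below both Wildtype arrays, and 1 of the 2, array 2, was well above background. Group means of -4.09 ± 0.97 and 0.35 ± 0.79 (SD, n = 2 for both labels) gave a log2 difference of -4.45, which rests in part on the value of Myd88-KO array 1 that was not well above background and was -3.76 without that array. Cd3g, the γ chain, read -6.23 and -2.82 in Myd88-KO and -0.63 and -1.88 in Wildtype. The arrays did not overlap, and again Myd88-KO array 1 was not well above background. Its log2 difference of -3.27 rested largely on that array and was -1.56 without it.

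Cd3e, the ε chain, which pairs with both the γ and the δ chain, read 1.73 and 2.00 in Myd88-KO and 1.87 and 1.97 in Wildtype. All 4 arrays were well above background and the labels overlapped, with a log2 difference of -0.06 that was smaller than the SD of the Myd88-KO arrays (0.20, n = 2). The level reading of Cd3e rests on 1 probe, and whether that probe reads this gene alone was not tested. Its probe starts at base 1374 of the transcript and holds the polyadenylation signal AATAAA, as do the probes of Lck and Cd28 and the brighter probe of Cd4, that is 4 of the 12 member probes against 10.1% of all non-control probes. The ζ chain gene Cd247 was well above background on Myd88-KO array 2 and Wildtype array 1 alone, the arrays with the most detected spots, and was not tested. It read -6.23 and -2.67 in Myd88-KO and -2.80 and -4.65 in Wildtype, so that the labels overlapped.

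Lck, the kinase that starts signalling at the receptor, was measured on all 4 arrays and lower in Myd88-KO. Its probe, at chr4:129225614-129225673 on the minus strand, read -1.28 and -1.30 on the Myd88-KO arrays and 2.23 and 1.30 on the Wildtype arrays. The Myd88-KO arrays were within 0.03 of each other and the labels were separated by 2.58. The log2 difference was -3.06, a signal 8.32-fold lower under the Myd88-KO label.

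**Figure D1:**
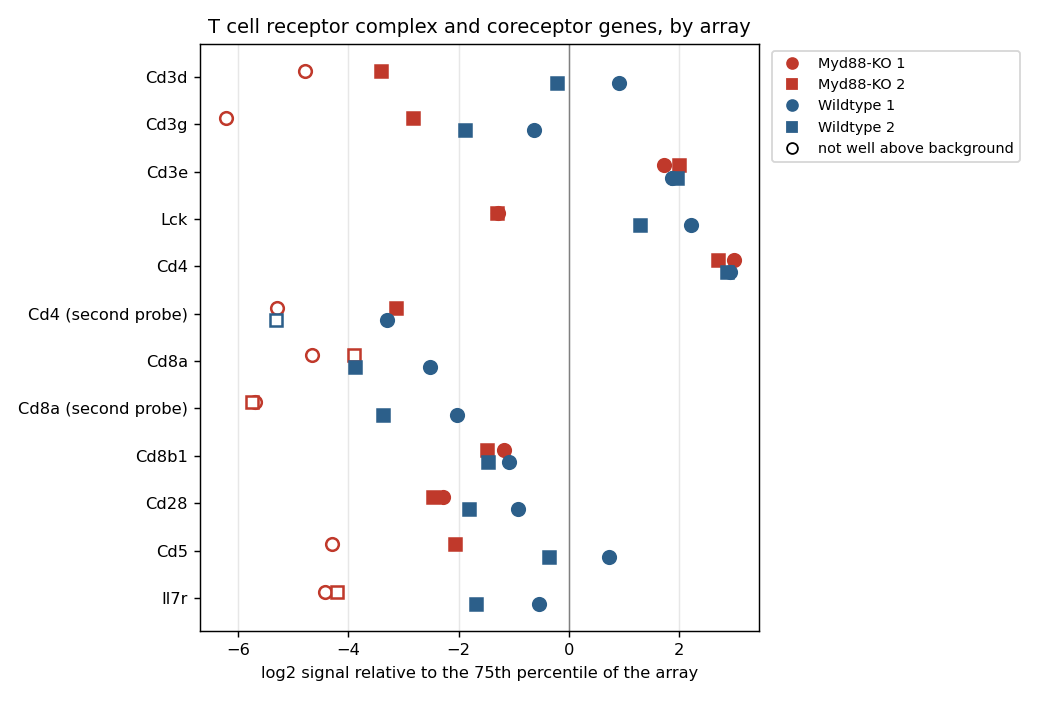
Signal of the 12 probes of the 10 genes on each array; the horizontal axis is the log2 signal relative to the 75th percentile for that array, red marks are Myd88-KO and blue marks Wildtype, circles are array 1 and squares array 2, and open marks were not well above background. Cd3d, Cd3g, Lck, Cd5 and Il7r sit clearly lower in Myd88-KO (log2 differences of -4.45 to -3.06), whereas Cd3e, Cd4 and Cd8b1 overlap, at differences of -0.06 to -0.04; probes are to be compared between arrays and not with each other.

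The coreceptors differed from each other and, in part, from probe to probe. Cd4, which marks helper T cells, has 2 probes. The brighter, at chr6:124814711-124814770, read 3.0 and 2.72 in Myd88-KO and 2.93 and 2.88 in Wildtype, and was level at a log2 difference of -0.04. The second, at chr6:124817706-124817765 and printed in 10 spots, was well above background on Myd88-KO array 2 and Wildtype array 1 alone and was not tested. It read -5.29 and -3.13 in Myd88-KO and -3.29 and -5.32 in Wildtype, so that the labels overlapped, with the higher value of each label on its array with more detected spots. The level reading of Cd4 thus rests on its brighter probe alone, and why the 2 probes differ was not tested.

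Cd8a, the α chain of the coreceptor of cytotoxic T cells, also has 2 probes. The one that stood for the gene, at chr6:71323885-71323944, read -4.66 and -3.89 in Myd88-KO and -2.52 and -3.88 in Wildtype. Neither Myd88-KO array was well above background, the labels were separated by only 0.01, and the signal was at least 1.66-fold lower in Myd88-KO. This bound sets the Wildtype mean against, for each Myd88-KO array, the lowest value called well above background, or the probe's value where that is higher. Every fold given as at least a value, here and below, is this bound and is not a strict minimum. The reading of -3.89 on Myd88-KO array 2 was not called, yet lay above the lowest called value there, -4.03. With normexp background correction, an alternative, the log2 difference of Cd8a was -0.14, smaller than its bound of -0.73. That alternative also gave a difference smaller than the bound for every gene below with such a fold. The other probe, printed in 10 spots at chr6:71328911-71328970, read -5.70 and -5.75 in Myd88-KO and -2.03 and -3.37 in Wildtype, separated by 2.32, and was at least 2.46-fold lower. Cd8b1, the β chain gene 36595 bases away by their probes, read -1.18 and -1.49 in Myd88-KO and -1.08 and -1.46 in Wildtype. All 4 arrays measured it, and it was level at a log2 difference of -0.06. This reading rests on 1 probe as well, and whether it reads Cd8b1 alone was not tested.

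The surface receptors that set the threshold and the lifespan of T cells were all lower in Myd88-KO. Cd28 (chr1:60830144-60830203), the costimulatory receptor, read -2.28 and -2.47 in Myd88-KO and -0.93 and -1.81 in Wildtype, all 4 well above background, with a log2 difference of -1.0. Cd5 (chr19:10792701-10792760), the inhibitory receptor that B-1a cells also carry, read -4.30 and -2.07 in Myd88-KO, of which array 2 alone was well above background, and 0.73 and -0.35 in Wildtype. Its log2 difference was -3.38, and -2.26 without Myd88-KO array 1. Il7r (chr15:9435976-9436035), the α chain of the IL-7 receptor, read -4.42 and -4.20 in Myd88-KO, neither well above background, and -0.54 and -1.69 in Wildtype. It was at least 7.39-fold lower by the bound above, a log2 difference of -2.89. With normexp background correction its log2 difference was smaller than that bound, at -1.26.

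Counted together, all 10 genes passed the filter (both arrays of 1 or both groups well above background). Of them, 5 (Cd3d, Cd3g, Cd5, Cd8a and Il7r) passed through the Wildtype arrays alone, which biased those 5 towards a dimmer reading in Myd88-KO. In 7 of the 10 both Myd88-KO arrays lay below both Wildtype arrays, against 18.7% of the 22321 genes tested on the whole array. A signal lower by 4-fold or more was found in 5 of the 10, against 1.17% of all genes tested. Since the genes were chosen by this contrast, these counts describe them and support nothing. The median log2 difference of the 10 genes was -2.07, or -1.94 with Il7r and Cd8a at their bounds, and that of all genes tested was 0.06. limma called 0 of all genes tested (0%) at an adjusted p of 0.05, the smallest adjusted p being 0.194, although 3714 genes had p under 0.05 before adjustment (1524 lower, 2190 higher). The share that was lower depends on the scaling: with arrays scaled by their medians, 756 of 996 were lower.

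The Wildtype arrays also differed from each other in these genes, a measure within 1 label that the choice of the genes did not compare. In the 7 genes whose labels did not overlap, Wildtype array 1 exceeded array 2 by 0.89 to 1.36 on the log2 scale (median 1.12), in 7 of 7. In Cd3e, Cd4 and Cd8b1 the same difference was -0.10 to 0.38. Among the 13608 genes tested whose mean Wildtype signal lay between those of the 7 genes (-3.20 to 1.77), it ran from -0.14 at the lower quartile to 0.26 at the upper quartile, and 3.46% of them fell between 0.89 and 1.36. The genes that were lower in Myd88-KO thus varied between the Wildtype arrays by more than most genes of like signal. Cd8b1, the one level gene within that range of signal, was also above the upper quartile, at 0.38, and Cd3e and Cd4 lay outside the range. The number of detected spots was also higher on Wildtype array 1, and its part in this was not tested.

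**Figure D2:**
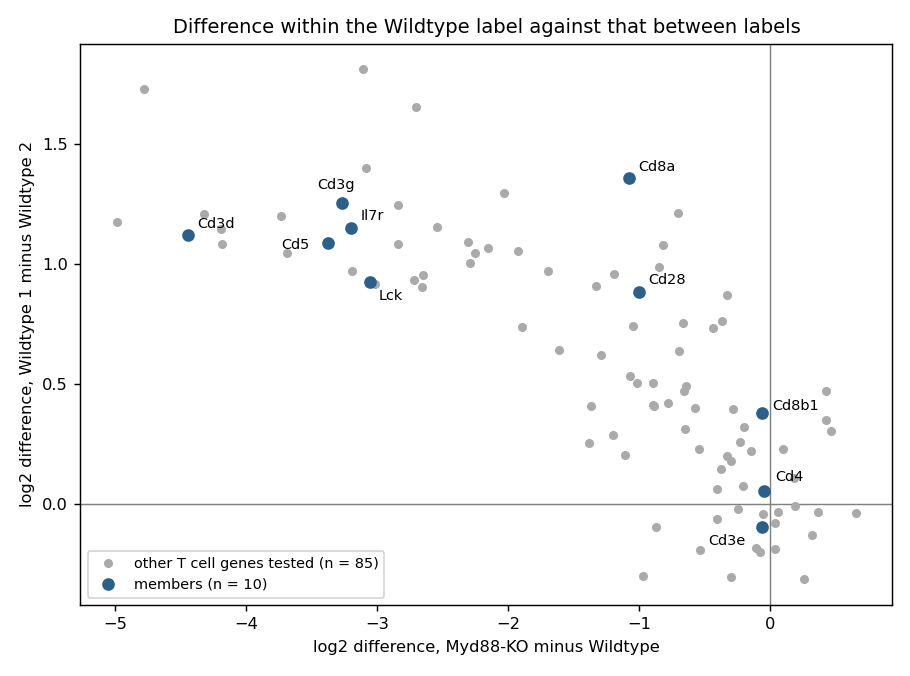
Difference between the 2 Wildtype arrays (vertical axis, log2, array 1 minus array 2) against the difference between the labels (horizontal axis, log2, Myd88-KO minus Wildtype) for the 10 members in blue and the 85 other T cell genes tested in grey, 1 point a gene. The 7 members that did not overlap between the labels lie at 0.89 to 1.36 on the vertical axis, and Cd3e, Cd4 and Cd8b1 lie between -0.10 and 0.38, close to 0 on the horizontal axis.

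The wider pathway was read through 9 lists of other T cell genes, 113 on the array, of which 85 were tested and 64 were well above background on all 4 arrays. limma called 0 of the 85 at an adjusted p of 0.05. At an unadjusted p under 0.05, 44 were lower and 2 higher, against 6.83% of all genes tested that were lower at that threshold, and among the 64 measured on all 4 arrays 33 were lower. When eBayes was run with its trend and robust options, 12 were called lower and 1 higher, against 0.972% of all genes called lower in that fit. The adjusted p of that fit is printed below only for genes under 0.05 in it. Prkcq and Btla were also under 0.05 in it. Cd6, Cd96, Grap2, Trav3n-3, Icos, Tcf7, Bcl11b, Ccr6 and Ccl5 were not, at adjusted p of 0.0559 to 0.340 from limma with these options. The median log2 difference was -0.84 over the 85, against 0.06 over all genes tested.

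Signalling partners of the receptor had the lowest median of the 9 lists. All 16 tested of 22 were below the Wildtype mean, 15 without overlap, with a median of -1.93 and 12 at an unadjusted p under 0.05. Prkcq, the protein kinase C isoform of the immunological synapse, was not well above background in Myd88-KO and at least 4.50-fold lower (limma, adjusted p = 0.194). Grap2, the adaptor that couples LAT to SLP-76, had a log2 difference of -2.84 with 1 Myd88-KO array above background (adjusted p = 0.269). Rasgrp1, the Ras exchange factor, differed least, at -0.29 (adjusted p = 0.433 from limma).

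Genes of the antigen-binding chains gave little to compare. Of 7 gene names on the array for such chains 2 were tested. Trav3n-3, an α chain variable segment, read -6.17 and -3.91 in Myd88-KO, neither above background, and -0.32 and -1.40 in Wildtype, and was at least 8.46-fold lower (adjusted p = 0.212 from limma). Tcrg-V1, a γ chain segment, differed by 0.37 on the log2 scale (limma, adjusted p = 0.493). Such segments are similar in sequence and their probes may share signal.

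Surface proteins of T cells were below the Wildtype mean in 8 of 8 tested genes of 9, with a median of -1.45 and 6 at an unadjusted p under 0.05. Cd2, the adhesion receptor, read -1.67 and -1.82 in Myd88-KO and 1.44 and 0.50 in Wildtype (difference -2.71, adjusted p = 0.194 from limma, and 0.0365 with trend and robust options). Cd96 was not well above background in Myd88-KO and at least 2.65-fold lower (adjusted p = 0.211 from limma). Cd6, a scavenger receptor family member beside Cd5 on chromosome 19 (chr19:10863829-10863888), had a difference of -1.92 (adjusted p = 0.209 from limma). Slamf6 differed least, at -0.23, and overlapped.

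Costimulators and checkpoints were mixed. Of 7 tested among 12, 3 were lower without overlap, and the median was -0.81. Btla, an inhibitory receptor of both T and B cells, was at least 9.65-fold lower, and Icos, a costimulator that lies near Cd28 on chromosome 1 (chr1:61057105-61057164), at least 4.71-fold lower, with adjusted p = 0.194 and 0.203 from limma. Tnfrsf4, the OX40 receptor, had a difference of -1.11 (adjusted p = 0.194 from limma, and 0.0386 with trend and robust options). Tnfrsf9 differed least, at 0.04. Ctla4, which lies between Cd28 and Icos, was well above background on 1 array of each label and was not tested. The ligands of this family, known from antigen-presenting cells, did not move together: Cd86, Icosl and Cd274 had differences of -0.69, -0.89 and -0.87. Cd80 read 6.10 and 5.89 in Myd88-KO and 5.32 and 5.36 in Wildtype, a difference of 0.65 (adjusted p = 0.205 from limma, and 0.0399 with trend and robust options). Which cells of the gland gave the Cd80 signal was not tested.

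Around Il7r, the common γ chain gene Il2rg, whose product pairs with the IL-7 receptor, read -3.45 and -3.03 in Myd88-KO and -0.11 and -1.07 in Wildtype, a difference of -2.65 (adjusted p = 0.194 from limma, and 0.0386 with trend and robust options). Il2rb and Socs1 followed at -1.02 and -0.97. The other genes of this axis, most of which many cell types make, lay closer to 0, with a median of -0.29 over 14 tested genes and a difference of 0.06 for Il15ra. The lineage transcription factors divided in the same way. Lef1 was measured on all 4 arrays at a difference of -2.66 (adjusted p = 0.194 from limma, and 0.0359 with trend and robust options), Tcf7 was at least 4.69-fold lower, Bcl11b was at -2.03 with 1 Myd88-KO array above background, and Runx1, which epithelia and many blood cells also make, was at -0.06. Their median over 14 tested genes was -0.68.

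Homing receptors were lower without overlap in 10 of 12 tested genes, 9 of them at an unadjusted p under 0.05, with a median of -1.20. Ccr7, the chemokine receptor that guides lymphocytes into lymph nodes, read -3.56 and -3.02 in Myd88-KO and 1.64 and 0.43 in Wildtype, a difference of -4.32 (adjusted p = 0.194 from limma, and 0.0364 with trend and robust options). Ccr6 was at -4.19 with 1 Myd88-KO array above background, and the gut homing receptor Ccr9 at 0.19. Naive and central memory T cells, and B cells, carry Ccr7. Cytotoxic and effector genes had a median of -0.42 over 8 tested of 14. The chemokine Ccl5 read 0.26 and 0.51 in Myd88-KO and 3.07 and 2.01 in Wildtype, a difference of -2.16 (adjusted p = 0.205 from limma). Ctsw was at -0.78, Gzmb at -0.65 with overlapping labels and 1 Myd88-KO array above background, and Gzmk at 0.04. Prf1, named after its values were seen, was higher in Myd88-KO without overlap, at 0.47 (adjusted p = 0.276 from limma). Of the 8 tested genes, 6 were below the Wildtype mean and 2 above it.

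**Figure D3:**
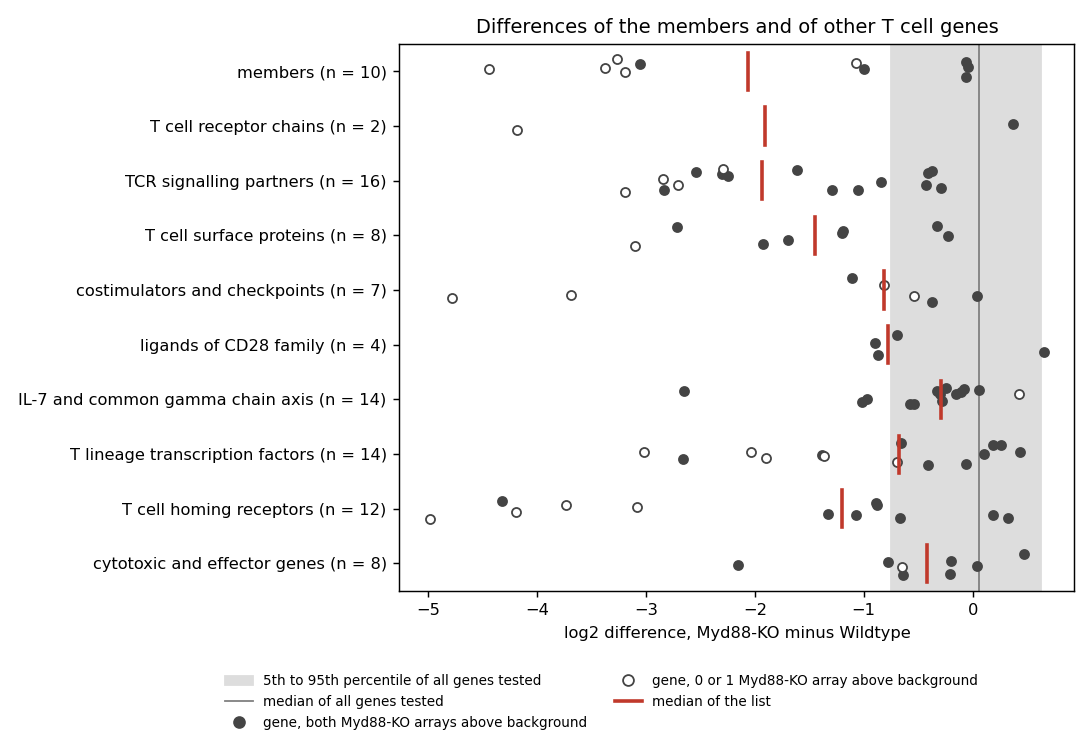
Log2 differences (Myd88-KO minus Wildtype, horizontal axis) of the 10 members and of the tested genes of the 9 other T cell lists, 1 point a gene, with the median of each list in red and the range from the 5th to the 95th percentile of all genes tested (-0.75 to 0.63) in grey. Open points had 0 or 1 Myd88-KO array above background; the medians run from -2.07 for the members to -0.29 for the IL-7 and common γ chain axis.

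Of the 23 genes in these lists that were lower by 4-fold or more, all 23 were higher on Wildtype array 1 than on Wildtype array 2, by 0.91 to 1.81 (median 1.09), as were the 7 members above. The 62 others had a median difference of 0.31 between the Wildtype arrays, positive in 45.

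Markers of other cell types were read because the members are T cell genes in a tissue of many cell types. B cell markers were below the Wildtype mean in 14 of 14 tested genes of 16, with a median of -2.92, and 11 had an unadjusted p under 0.05. Their summed signal, in units of the 75th percentile of the array, was 6.76 and 6.26 on the Myd88-KO arrays and 29.9 and 16.8 on the Wildtype arrays, so that it followed both the label and, within Wildtype, the same array order as the members. Summed signals, here and below, include the untested genes of a list. Ms4a1, which codes for CD20, was well above background on both Wildtype arrays and on 0 Myd88-KO arrays. The brightest of the list over all arrays, Pou2af1 and Cd79a, were at -0.14 and -0.89. The Cd79a probe is placed at chr12:53180558-53180617, and whether it reads that gene was not tested. Cd79b, named after its values were seen, was brighter than both on the Wildtype arrays (2.81 and 1.79) and was at -5.08. Genes of lymph node stroma and vessels were below the Wildtype mean in 8 of 9 tested genes of 10 on the array, with a median of -1.45 and a summed signal of 9.43 and 8.46 in Myd88-KO and 36.0 and 15.5 in Wildtype. Of their brightest genes over all arrays, Ltb, a cytokine made by lymphocytes, was at -2.11, and Madcam1, the one tested gene above the Wildtype mean, was at 0.85. Glycam1, a ligand made by high endothelial venules and named after its values were seen, read -6.29 and -3.48 in Myd88-KO, with array 2 alone above background, and 4.20 and 2.26 in Wildtype, the widest difference of the list at -8.12. Cxcl13, the chemokine of B cell follicles, was at -1.96. Skeletal muscle genes had a median of -4.07 over 5 tested genes, and their summed signal of 2.09 and 1.94 in Myd88-KO and 14.9 and 83.1 in Wildtype was highest on Wildtype array 2, the reverse of the members; Tnnc2 was at -5.99 and Acta1 at -2.11. The part of these tissues in the differences of the members was not tested.

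Lists of other blood cell types and of the gland held both level genes and wide differences, and the genes outside the 2 brightest of each list are named after their values were seen. The 13 macrophage markers had a median of 0.02, with Csf1r at 0.03 and Cd68 at -0.09, and ran from -0.44 to 2.76, the latter for Cd163, whose Wildtype array 2 was not well above background. The 5 tested mast cell markers had a median of -0.01 (Kit at -0.01, Tpsb2 at 0.04). Plasma cell markers had a median of -0.78 over 6 tested genes, with their brightest, Xbp1 and Sdc1, which epithelia also make, at 0.23 and 0.39. Igj, the joining chain of polymeric immunoglobulins, read -6.27 and -3.44 in Myd88-KO, with array 2 alone above background, and 1.28 and 0.76 in Wildtype, Mzb1 (2010001M09Rik on the array) was at least 8.01-fold lower, and Irf4 was at -1.62 with 1 Myd88-KO array above background. Dendritic cell markers had a median of -0.98 over 6 tested genes, with the brightest, Siglech and Itgax, at 0.08 and -0.39. Siglech read 8.06 and 8.14 in Myd88-KO and 7.93 and 8.11 in Wildtype, and Itgax read -0.72 to -0.31. Whether dendritic cells gave the Siglech signal was not tested. Cd209a and Flt3 were at -2.03 and -1.56, with 1 Myd88-KO array above background, and Clec9a was at least 1.18-fold lower, all 3 without overlap.

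Natural killer cell genes, which share the cytotoxic program of T cells, had a median of -0.53 over 4 tested of 6, with 0 at an unadjusted p under 0.05, Klrd1 at -1.17 and Klrb1c at -0.49. Their summed signal, with the 2 untested genes included, was 0.30 and 0.74 in Myd88-KO and 0.98 and 0.55 in Wildtype. It was thus higher, within each label, on the array with more detected spots. Markers of thymocytes and the thymus were tested in 1 of 8 genes, Dntt at -0.36, and Rag1 and Foxn1 were well above background on 0 arrays. Adipocyte genes had a median of -0.80 over 4 tested genes (Fabp4 at -0.84, Adipoq at -0.76). All 12 salivary gland epithelium genes were well above background on all 4 arrays, with a median of 0.11, Dcpp1 at 0.30 and Pip at 0.38, and ran from -1.86 (Smr3a) to 0.68. The labelled tissue was thus seen on every array.

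**Figure D4:**
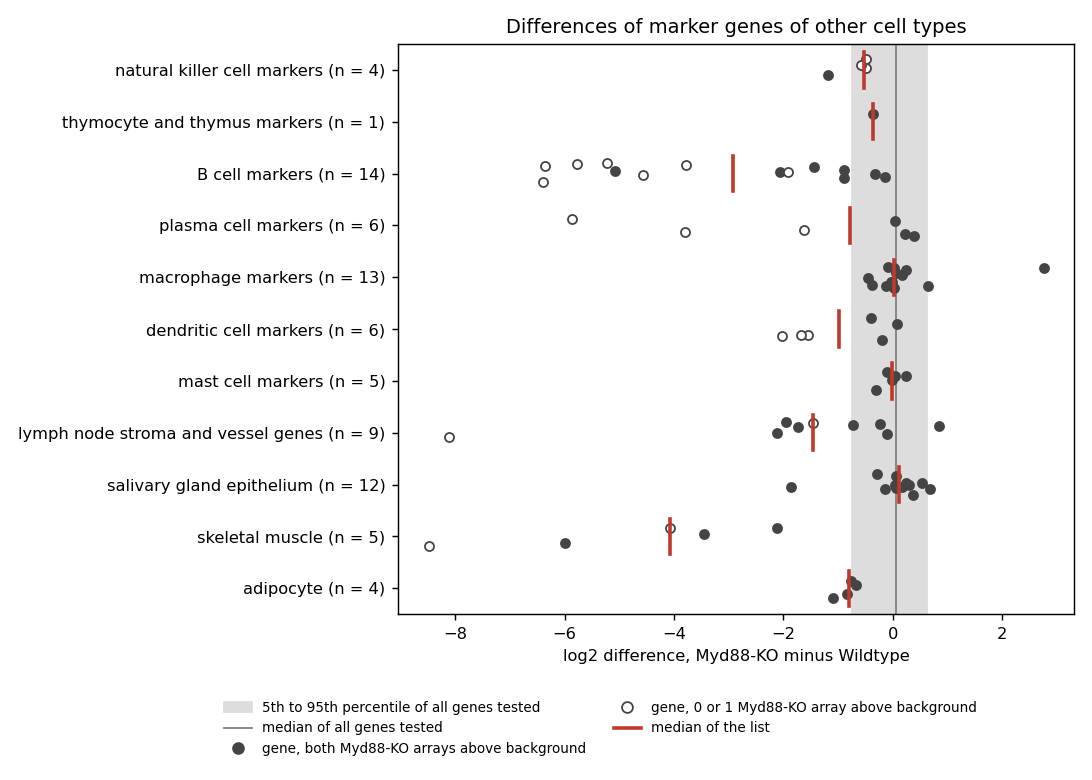
Log2 differences (Myd88-KO minus Wildtype, horizontal axis) of tested marker genes of 11 other cell types or tissues, 1 point a gene, with list medians in red and the range from the 5th to the 95th percentile of all genes tested in grey. B cell and skeletal muscle genes have the lowest medians (-2.92 and -4.07), and most macrophage, mast cell and gland epithelium genes lie around 0 (medians 0.02, -0.01 and 0.11).

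The profile of the members over the 4 arrays was matched against 20494 other genes well above background on all arrays. The mean profile of the 5 members measured on all 4 (Cd28, Cd3e, Cd4, Cd8b1 and Lck) joins level and lower genes, and its difference is accordingly small. The nearest by Euclidean distance of the 4 centred log2 values was Inpp5d, the SHIP1 phosphatase of blood cells, at a distance of 0.02 and a log2 difference of -0.85. Next came a transcript named only by its coordinates, Batf3, Srgn, Cd74, the transcript ENSMUST00000098144, Trim59 and Fli1, at distances of 0.04 to 0.09 and differences of -0.87 to -0.78. With 4 arrays, such likeness describes these libraries only.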

How the data were processed

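Salivary gland RNA of 2 Myd88-KO and 2 Wildtype samples, assigned by the labels, had been hybridized to 1-colour Agilent arrays. The authors deposited scanner output of Feature Extraction 10.7.3.1, whose processed signal is an intensity corrected for background and not normalized between arrays. The deposited flags (a code of 0 or 1, neither a score nor a count) mark outlier, saturated and well above background spots, and 0 spots were saturated. The deposited mean and background intensities served the normexp alternative alone. In the processed table of the series, 4 value columns could not be assigned to samples and were not used. Each array has 59305 non-control spots, and precision is limited by having 4 arrays.

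From these files, log2 signal minus each array's 75th percentile was computed, flagged spots (99 to 131 an array) were left out and spots of a probe were averaged. Probes with a share above 0.5 of spots called well above background were taken as detected. The 31035 of 55681 probes detected on 2 arrays of one group, or of both, were tested, and the brightest stood for its gene. All 22321 genes were fitted with lmFit and eBayes (limma 3.58.1, R 4.3.3), 2-sided, with Benjamini-Hochberg adjustment at 0.05, and the procedure was tested on simulated data. Differences are Myd88-KO minus Wildtype. An exact permutation test of 2 arrays against 2 cannot go below p = 0.333 and was not used. The alternatives were normexp background correction (offset 50), quantile normalization, 2 other scalings, no filter and a stricter filter, the mean of probes, trended and robust moderation, flagged spots kept, the methods' t-test, the replicate block and each array left out. A crossed block was added after seeing the data.

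The members and gene lists were chosen with earlier results of these data known. Named were the 10 members, the 3 tested genes with the largest difference and the 1 with the smallest in each T cell list, the 2 brightest tested markers of each cell type, the 8 genes of nearest profile, Myd88 and genomic neighbours. Some genes under this rule are not reported here, and other genes were named after their values were seen. Positions are of NCBI37/mm9 per the file headers, promoters are from RefSeq (GRCm38.p6).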

Additional observations from a re-analysis of the deposited data

How the results depend on the processing

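The direction of Cd3d, Cd3g, Cd8a, Lck, Cd5, Cd28 and Il7r was the same under all alternatives run, and the log2 differences of Cd3e, Cd4 and Cd8b1 stayed between -0.25 and 0.13, with a changed sign in 1, 1 and 3 of 12 alternatives. Normexp correction, which lifts dim values, brought the median of the members to -0.82 and that of the T cell pathway genes to -0.42, with Cd3d at -2.32, Lck at -2.50, Il7r at -1.26 and Cd8a at -0.14. It put Btla at -1.54, Trav3n-3 at -1.50, Mzb1 at -1.37, Icos at -1.07, Tcf7 at -0.94 and Prkcq at -0.84. Cd96 and Clec9a were at -0.64 and -0.08 with it. Each of these genes thus had a smaller difference than its bound given above. With the mean of both probes Cd8a was at -2.05. The filter of a signal well above background on all 4 arrays keeps 5 members, of which 3 are level, and gave a median of -0.063. Leaving out each array in turn gave medians of -2.64 to -1.33 for the members, the latter without Myd88-KO array 1, and of -1.09 to -0.63 for the pathway genes. Over all genes limma called 80 with normexp correction, 402 with median scaling, 482 with trended and robust moderation and 1 by the methods' t-test (2935 at p under 0.05 before adjustment), and 0 under the other alternatives. Among the pathway genes 25 were called with median scaling and 13 with trended and robust moderation. The cause was not tested. With the replicate number as a block 0 genes were called over all genes and 0 among the pathway genes (2413 and, lower alone, 36 at an unadjusted p under 0.05). The replicate numbers share no source that pairs them, and the deviations of same-numbered arrays ran against each other (r = -0.37 over 22309 genes). With the crossed replicate block, added after seeing the data, 0 genes were called.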

Other observations

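Lck was the member with a large difference that all 4 arrays measured, and the genes nearest to its own profile, a comparison chosen after its values were seen, were again T cell genes in part. Of 20494 genes ranked by Euclidean distance of their centred log2 values, the 8 nearest included A430104N18Rik, ENSMUST00000103291, Dusp2, Cd2, Ms4a4b, Lef1 and Il2rg, at distances of 0.16 to 0.51. Cd2, Lef1 and Il2rg also stand in the T cell lists. Dusp2, a phosphatase of activated lymphocytes, read -1.77 and -1.90 in Myd88-KO and 2.07 and 0.92 in Wildtype. Ms4a4b, a membrane protein of T cells, read -1.18 and -1.52 in Myd88-KO and 1.83 and 0.94 in Wildtype. The profiles share the 4 libraries, and no test was made.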
